A study of Mus musculus with 11 samples.

Results

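Netrin-G, nectin and related synaptic adhesion genes were followed through the cell classes of the cerebellum, brainstem and cervical cord in mice that lack or retain an IL-12 receptor subunit in the neuroectoderm. The group held 9 genes chosen by symbol: Ntng1, Ntng2, Lrrc4, Lrrc4c, Nectin1, Nectin3, Cadm1, Cadm2 and Cadm3. All 9 were found among the 25827 genes with a symbol that were counted in all 11 libraries. They were read in 13 classes of nuclei named from marker genes, of which 7 were neuronal, by summing the unique molecular identifiers (UMIs) of a gene over the nuclei of a class in each library and scaling them to counts per 1000000 UMIs of that class (CPM).

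The libraries were single-nucleus RNA sequencing of male mice of 8 to 12 weeks, each made from cerebellum and brainstem of a single hemisphere together with upper cervical cord, with nuclei sorted on a DNA dye. Il12rb2 fl/fl animals (here fl) carry a conditional allele of the IL-12 receptor beta 2 chain, and Nestin Cre/+ Il12rb2 fl/fl animals (here NestinCre) also express Cre under the Nestin promoter. That promoter acts in neural precursors, so neurons, astrocytes and oligodendrocytes are targeted and microglia are not. All animals therefore carried the floxed allele, and no group carried Cre without it. Experimental autoimmune encephalomyelitis (EAE), a model of neuroinflammation, was induced with the myelin peptide MOG35-55 in complete Freund's adjuvant and pertussis toxin, and tissue was taken at day 10. There were 4 fl EAE, 4 NestinCre EAE and 2 fl non-immunized (naive) libraries and 1 NestinCre naive library. Libraries 1 to 3 of each EAE group were sequenced in run 1, and the last library of each came from run 2 along with fl naive 2. The other naive libraries, of either genotype, came from run 3.

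The libraries held 40761007 to 86063464 UMIs in 13120 to 22951 barcodes, and any pair shared at most 0.692% of the barcodes of the smaller. After filtering, 159087 nuclei were kept, of which 139787 lay in the 13 classes, 101559 of them granule cells. Il12rb2 itself stood at 14.3 to 21.7 CPM in the granule cells of the fl EAE libraries and at 10.1 to 20.9 CPM in those of NestinCre EAE. Where the tags lie against the excised part was not given in the sources used here, so this level does not check the genotype labels. Nuclei with the profile of infiltrating phagocytes made up 0.0613 to 0.182% of the nuclei in fl EAE and 0.168 to 1.08% in NestinCre EAE.

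Netrin-G1 (Ntng1) and netrin-G2 (Ntng2) are proteins anchored to the axon membrane by a lipid. Each binds its own leucine-rich repeat partner on the facing dendrite, the product of Lrrc4c for netrin-G1 and that of Lrrc4 for netrin-G2, and these pairs help to sort inputs onto dendritic segments. Nectin-1 and nectin-3 are immunoglobulin-type adhesion molecules that bind each other across a contact and are tied to actin by afadin. The Cadm genes encode the related nectin-like or SynCAM proteins, which join synaptic membranes and also axons to their myelinating glia.

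The genes differ widely in genomic size, which matters because intronic reads were counted. On GRCm39, Ntng1 lies on the minus strand at chr3:109687356-110051327 and Ntng2 on the minus strand at chr2:29084553-29143017. Lrrc4 (minus strand, chr6:28661830-28833342) is overlapped on the opposite strand by Snd1, which encodes a nuclease and RNA-binding protein. Lrrc4c spans 1313.5 kb at chr2:96148514-97462016 on the plus strand. Nectin1 is at chr9:43655019-43743955 (plus) and Nectin3 at chr16:46208069-46318888 (minus). Cadm1 is at chr9:47441471-47773576 (plus), Cadm2 at chr16:66451872-67417816 (minus) and Cadm3 at chr1:173160825-173195452 (minus). Cadm3 overlaps the annotated span of Ackr1 on its own strand and of Aim2 on the other, and Cadm1 overlaps the predicted genes Gm47198 and Gm47197. Whether counting used the strand was not given in the sources used here, so reads of overlapping genes on opposite strands may not be fully told apart.

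The promoters of the 2 genes whose levels differed between the genotypes, Ntng2 and Nectin3, are shown for the features they share or do not share. They come from RefSeq on GRCm38.p6 and run 5′ to 3′ from 250 bases before to 50 bases after the annotated start. Capitals mark the E-box letters CANNTG, the motif class that Neurod1-type factors of granule cells bind. The STAT-type letters TTCNNNGAA (GAS motif) were searched as well, since the IL-12 receptor signals through a STAT factor. Both motifs read the same on either strand, and neither overlapped the other here.
Ntng2, chr2:29248050-29248349, minus strand: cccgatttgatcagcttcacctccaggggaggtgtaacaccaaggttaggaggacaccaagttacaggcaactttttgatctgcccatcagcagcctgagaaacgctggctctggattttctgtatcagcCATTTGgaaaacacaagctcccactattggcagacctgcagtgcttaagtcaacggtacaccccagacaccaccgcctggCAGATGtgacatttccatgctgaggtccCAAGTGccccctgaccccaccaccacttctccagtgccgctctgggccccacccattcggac
Nectin3, chr16:46496918-46497217, minus strand: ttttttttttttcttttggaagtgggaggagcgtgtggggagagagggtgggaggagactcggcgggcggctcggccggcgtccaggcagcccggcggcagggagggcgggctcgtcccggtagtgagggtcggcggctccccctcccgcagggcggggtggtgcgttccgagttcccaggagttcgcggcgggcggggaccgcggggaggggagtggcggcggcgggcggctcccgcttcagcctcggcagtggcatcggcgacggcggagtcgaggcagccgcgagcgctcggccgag
The Ntng2 window held 3 E-box matches and a GC content of 55.0%, whereas the Nectin3 window held 0 and was 73.7% GC. Neither held the GAS letters. Of 32851 promoters of the same length, 72.3% held an E-box match and 8.3% a GAS match, and the median GC content was 52.7%. The matches are letters only and were not tested for binding.

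Across classes the members fell into different patterns, and these levels are given as a description with no test. Ntng1 was highest in unipolar brush cells, excitatory interneurons of the granular layer, at 1443 ± 266 CPM (SD, n = 11), and in excitatory neurons of brainstem and cord at 1007 ± 59.0 CPM. The former exceeded the latter in 10 of 11 libraries, and each stood above the 366 ± 37.7 CPM of granule cells in every library. The unipolar brush cell class held 402 nuclei, of which 38 formed a cluster led by genes of dopamine synthesis and transport (Th, Ddc, Slc6a3 and Slc18a2) and by none of the markers of the class, which goes against the name. This cluster had 17 of its nuclei in fl naive 2 and 11 in NestinCre EAE 4, so the results that rest on the class are also given without it. Without it Ntng1 stood at 1620 ± 178 CPM in unipolar brush cells, above excitatory neurons in 11 of 11 libraries. In mature oligodendrocytes, microglia and Bergmann glia, Ntng1 lay at 17.96 to 22.2 CPM, which was at or below the level that free RNA from granule cells would give in all 11 libraries. That background was set from 4 granule cell genes (Gabra6, Fat2, Cbln3 and Neurod1), whose summed level in the other classes had medians of 5.016% to 27.15% of that in granule cells.

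Ntng2 had excitatory neurons as its second class too, but another order otherwise. It was highest in astrocytes (58.8 ± 13.8 CPM, n = 11), followed by excitatory neurons (45.2 ± 12.97 CPM) and mature oligodendrocytes (36.6 ± 9.97 CPM), and astrocytes exceeded excitatory neurons in 10 of 11 libraries. Excitatory neurons exceeded mature oligodendrocytes in 8 of 11. Granule cells held 15.3 ± 6.34 CPM. Molecular layer interneurons had the lowest mean, 1.98 ± 0.997 CPM, on 65 UMIs over the 11 libraries.

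The genes for the netrin-G partners were also unlike each other. Lrrc4c reached 7693 ± 1168 CPM in oligodendrocyte progenitor cells, above all 12 other classes in every library. That class held 953 nuclei, of which 60 formed a cluster led by vomeronasal receptor genes (Vmn1r209, Vmn1r207), Pax3 and Pax7, transcription factors of dorsal neural precursors, and only 1 marker of the class, Sox6. Without this cluster Lrrc4c stood at 8379 ± 819 CPM, still above all 12 other classes in every library. Pax7 also led a cluster of 146 of the 7663 molecular layer interneurons, and the fold changes of Ntng1 given for that class stand beside those without it. Astrocytes (3865 ± 776 CPM), inhibitory neurons (3493 ± 387 CPM) and excitatory neurons (3127 ± 233 CPM) came next, and astrocytes exceeded inhibitory neurons in only 6 of 11 libraries. Bergmann glia, the astroglia of the Purkinje layer, stood at 119 ± 44.3 CPM for Lrrc4c, at or below background in 10 of 11 libraries, so the classes of astroglia differed. Lrrc4 varied less, from 84.7 ± 19.7 CPM in Purkinje cells to 227 ± 25.1 CPM in granule cells and 342 ± 114 CPM in microglia.

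The gene whose class pattern was most like that of Lrrc4 was the overlapping Snd1. Pearson's r of log2(CPM + 1) was 0.958 over 13 classes, among 11815 genes compared, and the classes share libraries and depth, so it is given with no p. Mean Snd1 CPM was lowest in Purkinje cells (77.5 ± 14.2) and highest in microglia (390 ± 133), the same end points as for the means of Lrrc4. Lrrc4 in microglia exceeded that in granule cells in 8 of 11 libraries, all of them EAE, and lay below it in the 3 naive libraries. In the microglia of each library, Lrrc4 stood at 299, 317, 455 and 432 CPM in fl EAE, at 505, 440, 429 and 266 CPM in NestinCre EAE, at 224 and 209 CPM in fl naive and at 182 CPM in NestinCre naive. Snd1 stood at 360, 223, 464 and 459 CPM in fl EAE, at 598, 505, 532 and 402 CPM in NestinCre EAE, at 264 and 277 CPM in fl naive and at 208 CPM in NestinCre naive. The 8 EAE libraries were all above the 3 naive ones for Lrrc4. For Snd1 all but fl EAE 2 were. Whether reads of Snd1 entered the Lrrc4 counts was not tested.

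**Figure D1:**
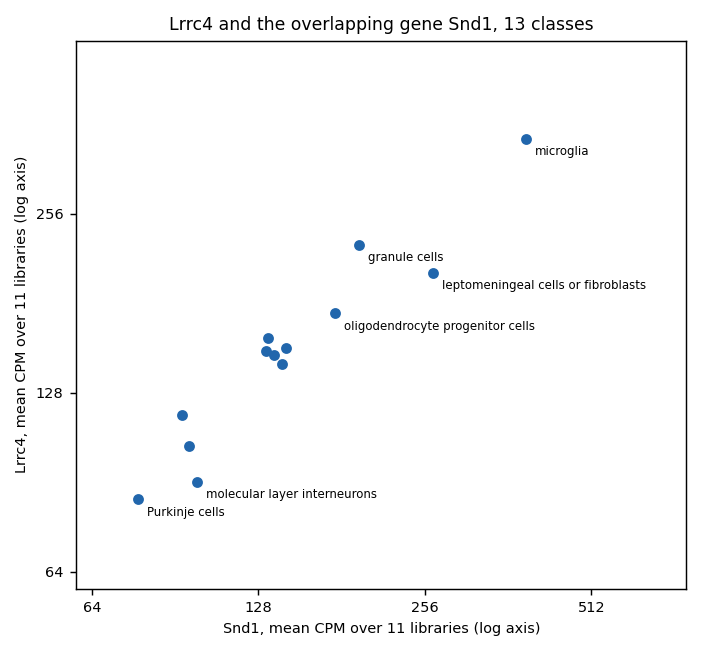
Each point is a class of nuclei, with the mean CPM of Snd1 on the x axis and of Lrrc4 on the y axis over 11 libraries, both on log axes. Classes with a higher level of Snd1 mostly had a higher level of Lrrc4, from Purkinje cells at 77.5 and 84.7 CPM to microglia at 390 and 342 CPM, with r = 0.958 on the log2 scale.

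Among the nectins, Nectin1 was highest in Golgi cells, inhibitory interneurons of the granular layer, at 172 ± 35.1 CPM. This exceeded all 12 other classes in every library. Molecular layer interneurons (95.9 ± 22.1 CPM) exceeded mature oligodendrocytes (85.6 ± 29.5 CPM) in 10 of 11 libraries, and granule cells held 15.1 ± 2.41 CPM. Its binding partner Nectin3 was nearly absent from Golgi cells, with 5.06 ± 4.80 CPM (22 UMIs over the 11 libraries), and was at or below background there in 5 of 11 libraries. Nectin3 was highest in oligodendrocyte progenitor cells (89.9 ± 23.2 CPM), astrocytes (66.9 ± 17.4 CPM), leptomeningeal cells or fibroblasts (65.9 ± 35.9 CPM) and granule cells (63.7 ± 11.3 CPM), and the order among these 4 did not hold in every library.

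Among the Cadm genes, Cadm1 had similar means in oligodendrocyte progenitor cells (749 ± 68.5 CPM), inhibitory neurons (727 ± 56.7 CPM) and excitatory neurons (707 ± 56.1 CPM), whose order changed between libraries. It was lowest in Bergmann glia at 80.4 ± 34.8 CPM. Cadm2 was highest in granule cells, 4476 ± 357 CPM, above all 12 other classes in every library, and its 167 ± 55.1 CPM in microglia was at or below background in all 11 libraries. Cadm3 was also highest in granule cells (358 ± 24.9 CPM), above unipolar brush cells (289 ± 70.3 CPM) in 10 of 11 libraries, and lowest in Purkinje cells (42.2 ± 14.5 CPM). Without the dopamine-gene cluster, unipolar brush cells held 320.5 ± 72.0 CPM of Cadm3 and exceeded granule cells in 3 of 11 libraries.

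**Figure D2:**
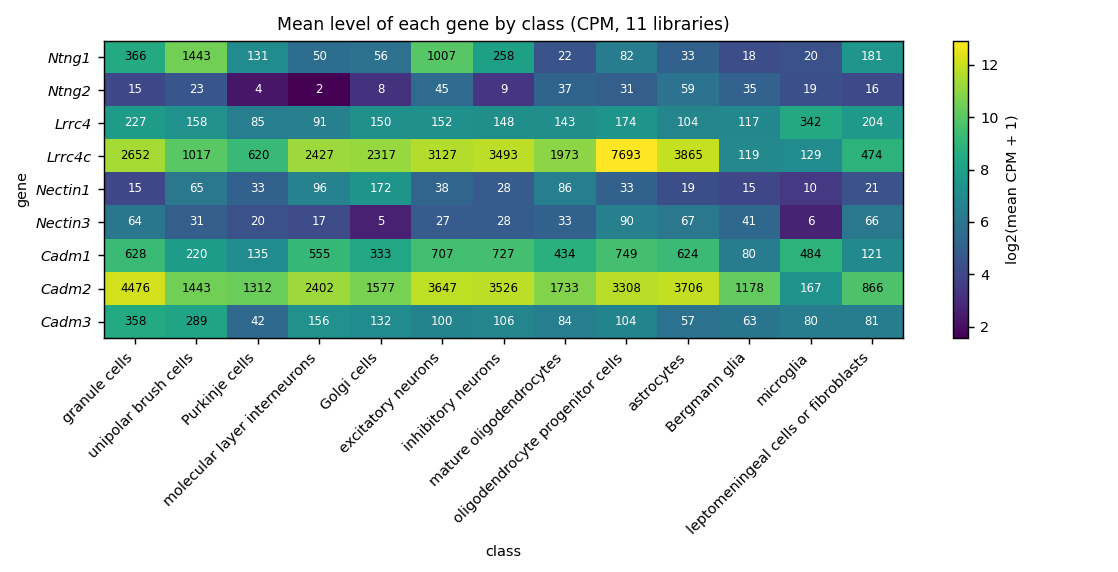
The color and the printed number give the mean level of each gene (rows) in each of 13 classes (columns) over 11 libraries, the color as log2(CPM + 1) and the number as CPM. Values are to be read along a row, since genes of different length yield different counts: Lrrc4c peaked at 7693 CPM in oligodendrocyte progenitor cells, Nectin1 at 172 CPM in Golgi cells and Ntng1 at 1443 CPM in unipolar brush cells, the dopamine-gene cluster included.

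The genes most like the others over the 13 classes, by the same measure, were Patj for Ntng1 (r = 0.923), Kiz for Ntng2 (r = 0.821), Elovl6 for Lrrc4c (r = 0.897) and Dusp15 for Nectin1 (r = 0.847). For the remaining members they were Frmd6 for Nectin3 (r = 0.838), Hbs1l for Cadm1 (r = 0.876), Map2 for Cadm2 (r = 0.893) and Tmem178 for Cadm3 (r = 0.949). These are descriptions over 13 points that share libraries.

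The main comparison asked how the loss of IL-12 receptor signaling in the neuroectoderm changed the transcriptome during EAE, and it set NestinCre EAE against fl EAE. Granule cells, the small glutamatergic neurons of the cerebellum, had lower levels of Ntng2 and Nectin3 in NestinCre EAE. Across all classes, 94 pairs of member and class passed the filter on low counts and 2 were called at an adjusted p under 0.05 (edgeR quasi-likelihood test, Benjamini-Hochberg within a class), beside 1.02% of all 101881 gene and class pairs. Both calls were in granule cells, where 281 of 15659 genes were called (1.79%), 20 of them lower in NestinCre EAE (0.128%). Of the 9 members in granule cells, 7 had a negative log2 fold change and the median was -0.134, beside -0.001 over all genes. The study had picked out Ntng1, Ntng2, Nectin3 and Cadm3 in neurons from these same samples, so their direction here is no independent evidence. It had named Ntng2 and Nectin3 for granule cells and molecular layer interneurons. Ntng1 and Cadm3 were not called here in granule cells, nor was any member in molecular layer interneurons. The study had listed Ntng1 and Cadm3 from a Wilcoxon rank-sum test over nuclei, and Ntng2 and Nectin3 also from counts summed per sample with DESeq2. For Ntng1 and Cadm3 the unit and the test therefore differ from those used here.

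Ntng2 in granule cells stood at 13.6, 14.7, 16.9 and 15.7 CPM in the fl EAE libraries (267 to 600 UMIs each). In NestinCre EAE it stood at 7.87, 8.72, 11.2 and 12.97 CPM (172 to 301 UMIs). All 4 NestinCre libraries were below all 4 fl libraries, as for 1.45% of genes in this class. The fitted log2 fold change was -0.617 ± 0.125 (SE), a fold of 0.652, with an adjusted p of 0.0392 (edgeR). When every nucleus was thinned to 1000 UMIs, 1.51 ± 0.199% of granule nuclei had a Ntng2 UMI in fl EAE and 1.04 ± 0.259% in NestinCre EAE (SD, n = 4), beside 3.53% and 2.16% without thinning. The share in molecular layer interneurons, the class with the lowest level, was 0.149 ± 0.122% and 0.131 ± 0.154%. Median UMIs per granule nucleus ranged from 1871 to 3085 in fl EAE and from 1708 to 2455 in NestinCre EAE.

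Nectin3 in granule cells stood at 67.6, 66.8, 72.2 and 67.5 CPM in fl EAE (1327 to 2580 UMIs). In NestinCre EAE it stood at 50.0, 55.3, 58.0 and 58.8 CPM (965 to 1365 UMIs). Again the groups did not overlap, and the spread within fl EAE was small. The log2 fold change was -0.327 ± 0.062 (SE), a fold of 0.797, with an adjusted p of 0.0291 (edgeR). The thinned share of granule nuclei with a Nectin3 UMI was 6.49 ± 0.207% in fl EAE and 5.37 ± 0.521% in NestinCre EAE, beside 14.3% and 11.0% without thinning. In Golgi cells, where Nectin3 was lowest, that share was 0.758 ± 1.52% and 2.18 ± 2.52%.

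Leaving out any 1 of 5 EAE libraries ended both calls (edgeR). The adjusted p of Ntng2 was 0.0923 without fl EAE 1, 0.125 without fl EAE 2, 0.0913 without fl EAE 3, 0.109 without NestinCre EAE 1 and 0.131 without NestinCre EAE 2. For Nectin3 the same omissions gave 0.0917, 0.087, 0.0844, 0.0864 and 0.0917. The log2 fold change itself stayed between -0.701 and -0.544 for Ntng2 and between -0.354 and -0.305 for Nectin3. Within run 1 alone it was -0.682 (adjusted p = 0.0374) and -0.314 (adjusted p = 0.0459). With the replicate number as a block in the edgeR fit, the adjusted p was 0.052 for Ntng2 and 0.0883 for Nectin3. Adjusting p over all classes together also ended both calls, and leaving out the run term ended that of Ntng2.

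Markers of infiltrating cells moved with the genotype in the same nuclei. The summed level of 11 phagocyte and neutrophil markers in granule cells was 7.16 to 21.6 CPM in fl EAE and 29.0 to 221 CPM in NestinCre EAE, with 11 of 11 markers above 0 in every EAE library. In the naive libraries it was 3.45 to 5.73 CPM. Their part in the result was not tested.

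**Figure D3:**
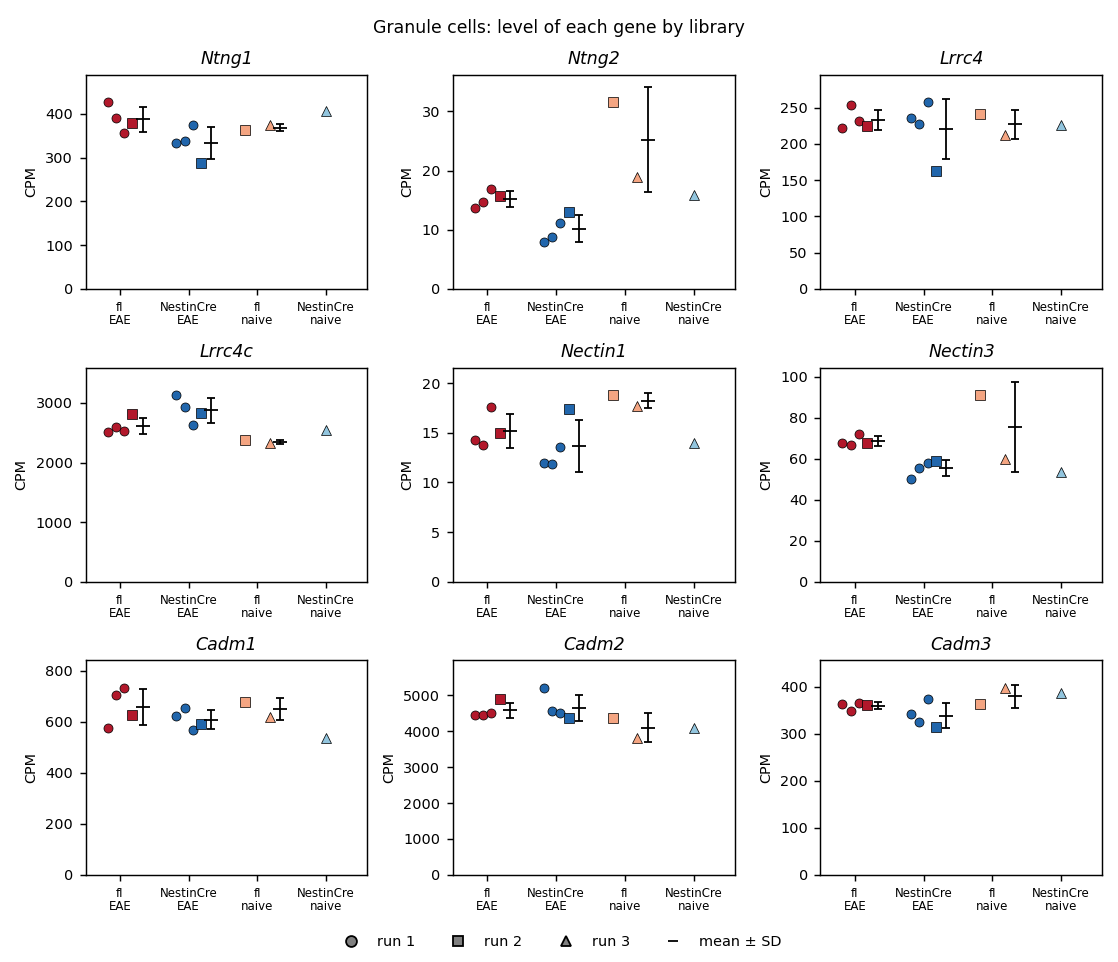
Each panel gives the CPM of a gene in granule cells, with a point for each library, its group on the x axis and its sequencing run as the marker shape. Bars show the mean ± SD of groups with more than 1 library. The NestinCre EAE points lie below all fl EAE points for Ntng2 (7.87 to 12.97 against 13.6 to 16.9 CPM) and Nectin3 (50.0 to 58.8 against 66.8 to 72.2 CPM) and overlap with them in the other panels.

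The other members in granule cells did not pass the test. Ntng1 stood at 426, 390, 357 and 379 CPM in fl EAE and at 333, 338, 375 and 287 CPM in NestinCre EAE, with overlap of a single NestinCre library. Its log2 fold change was -0.244 ± 0.097 with an adjusted p of 0.445 (edgeR), and -0.135 without fl EAE 4 and -0.137 without NestinCre EAE 4 or in run 1 alone. Cadm3 stood at 364, 348, 365 and 361 CPM in fl EAE and at 342, 325, 375 and 314 CPM in NestinCre EAE. The difference was -0.108 ± 0.085 on the log2 scale (adjusted p = 0.796), and -0.018 without fl EAE 4 and -0.021 without NestinCre EAE 4 or in run 1 alone. The remaining members in granule cells had log2 fold changes of -0.182 (Nectin1), -0.134 (Cadm1), -0.118 (Lrrc4), 0.007 (Cadm2) and 0.123 (Lrrc4c).

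In molecular layer interneurons, the inhibitory cells of the cerebellar molecular layer, 8 members were tested and 0 were called by edgeR or DESeq2, with 0 at an unadjusted p under 0.05, where 0.156% of 11566 genes were called and 6.97% had such an unadjusted p. Ntng1 gave a log2 fold change of -0.308 ± 0.196 (adjusted p = 0.842), from 49.4, 32.1, 66.9 and 40.7 CPM in fl EAE and 31.0, 43.0, 30.1 and 44.6 CPM in NestinCre EAE. Leaving out a library moved it between -0.466 and -0.084, the latter without fl EAE 3, nuclei under 6000 UMIs gave -0.096, and the class without the Pax7-led cluster gave -0.28. Over all 11 libraries, 3 were at or below the background from granule cells. Nectin3 gave -0.158 ± 0.162 (adjusted p = 0.921), from 18.6, 17.2, 19.0 and 20.2 CPM against 14.6, 19.5, 15.4 and 17.5 CPM (25 to 84 UMIs a library). It moved between -0.241 (without NestinCre EAE 2) and -0.098 (without fl EAE 4) with a library left out and was -0.033 in nuclei under 6000 UMIs. Cadm3 gave -0.011 ± 0.1 (adjusted p = 0.994), from 154, 160, 154 and 142 CPM against 136, 140, 187 and 141 CPM. Ntng2 had only 3 to 6 UMIs in a fl EAE library and 1 to 6 in a NestinCre EAE library in this class and did not pass the filter, so a difference was not detectable at this depth. Cadm1 in these cells had a log2 fold change of 0.177 ± 0.1 (adjusted p = 0.795), from 508, 553, 584 and 560 CPM against 676, 605, 675 and 526 CPM.

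Among the 94 tested pairs, Lrrc4c in molecular layer interneurons was the only one that was higher in all 4 NestinCre EAE libraries than in all 4 fl EAE libraries. It stood at 3122, 2635, 2583 and 2525 CPM against 2272, 2311, 2417 and 2502 CPM, a pattern that 1.69% of genes in this class showed. At a log2 fold change of 0.210 it did not pass the test (adjusted p = 0.717, edgeR).

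Purkinje cells, the output neurons of the cerebellar cortex, gave the smallest p of Ntng1 and Nectin1. Ntng1 stood at 181, 125, 119 and 164 CPM in fl EAE and at 107, 103, 101 and 130 CPM in NestinCre EAE, so the groups overlapped through NestinCre EAE 4. Its log2 fold change was -0.405 ± 0.163 (adjusted p = 0.91, edgeR). Nectin1 stood at 38.0, 37.1, 41.9 and 35.3 CPM in fl EAE and at 31.4, 26.6, 33.7 and 21.5 CPM in NestinCre EAE, without overlap, as 1.41% of genes in this class. Its log2 fold change was -0.493 ± 0.246 (adjusted p = 0.91), on only 8 to 53 UMIs a library. In this class 0 of 6014 genes were called by edgeR (0.0%), and 5.07% had an unadjusted p under 0.05. The largest Purkinje cluster held 44.2% of the class in fl EAE and 70.8% in NestinCre EAE, and its part in these values was not tested.

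Unipolar brush cells gave the smallest p of Cadm2, at 1152, 1133, 1099 and 1494 CPM in fl EAE and 1574, 1322, 2344 and 1763 CPM in NestinCre EAE. In the fit this was a log2 fold change of 0.570 ± 0.192 (adjusted p = 0.952, edgeR), and the groups overlapped. It rested on the dopamine-gene cluster: without those nuclei Cadm2 stood at 1077, 963, 1099 and 1494 CPM against 1622, 1322, 1217 and 806 CPM, with a log2 fold change of 0.077 ± 0.178 (adjusted p = 0.997). Cadm1 in the same class is named here after its value was seen. With the cluster its log2 fold change was -0.171 (adjusted p = 0.999), and without it -0.887 ± 0.239 (adjusted p = 0.477), from 198, 210, 236 and 191 CPM in fl EAE and 95.8, 105, 138 and 108 CPM in NestinCre EAE (12 to 52 UMIs a library), which did not overlap, as for 1.65% of 3203 genes in these nuclei. With the cluster included, Cadm1 was at or below the background from granule cells in 3 of 11 libraries.

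In Golgi cells Lrrc4 stood at 141, 150, 142 and 119 CPM against 155, 207, 183 and 135 CPM, with a log2 fold change of 0.311 ± 0.156 (adjusted p = 0.83).

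In glia, Lrrc4c in mature oligodendrocytes had the smallest unadjusted p of the members (0.00802). It stood at 1623, 1802, 1773 and 1931 CPM in fl EAE and at 2650, 3049, 2267 and 1921 CPM in NestinCre EAE, so that only the run 2 library NestinCre EAE 4 overlapped with fl EAE. The log2 fold change was 0.453 ± 0.146 and not called (adjusted p = 0.233, edgeR), in a class where 1.53% of 11483 genes were called. Without NestinCre EAE 4 it was 0.650 with an adjusted p of 0.01, without fl EAE 4 it was 0.647 with 0.0101, and within run 1 alone it was 0.647 with 0.0103. With run in the fit, either omission leaves a lone run 2 library that adds next to nothing to the genotype contrast. The values are therefore in effect a single estimate from the run 1 libraries, not separate support, and they set aside the library that overlapped. Thinned to 1000 UMIs, 72.2 ± 3.15% of these nuclei had a Lrrc4c UMI in fl EAE and 80.8 ± 4.83% in NestinCre EAE, beside 86.8% and 90.4% without thinning and 8.58 ± 4.31% and 16.1 ± 9.10% in Bergmann glia. In astrocytes Lrrc4c stood at 3182, 3531, 4409 and 3564 CPM against 5102, 4528, 5003 and 3745 CPM, a log2 fold change of 0.348 ± 0.139 (adjusted p = 0.568).

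Cadm3 in microglia, which Cre does not target, stood at 76.1, 78.0, 110 and 77.7 CPM in fl EAE and at 58.1, 67.9, 51.7 and 66.0 CPM in NestinCre EAE. The groups did not overlap, as for 4.62% of genes in this class, and the log2 fold change of -0.522 ± 0.224 was not called (adjusted p = 0.217, edgeR). The level rested on 14 to 71 UMIs a library, and over all 11 libraries 4 were at or below the background from granule cells. Ntng2 in microglia had 1 to 5 UMIs in a fl EAE library and 16 to 22 in a NestinCre EAE library, 15.2, 5.57, 8.76 and 16.9 CPM against 26.6, 47.3, 38.3 and 20.5 CPM, and did not pass the filter. Higher values without overlap were found for 6.68% of the genes that passed it in this class. Ntng2 entered the test with no filter, or with fewer libraries through the NestinCre EAE libraries where it was high, so those p-values are not given. The largest microglia cluster held 63.2% of the class in fl EAE and 47.5% in NestinCre EAE, and its part in these values was not tested.

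**Figure D4:**
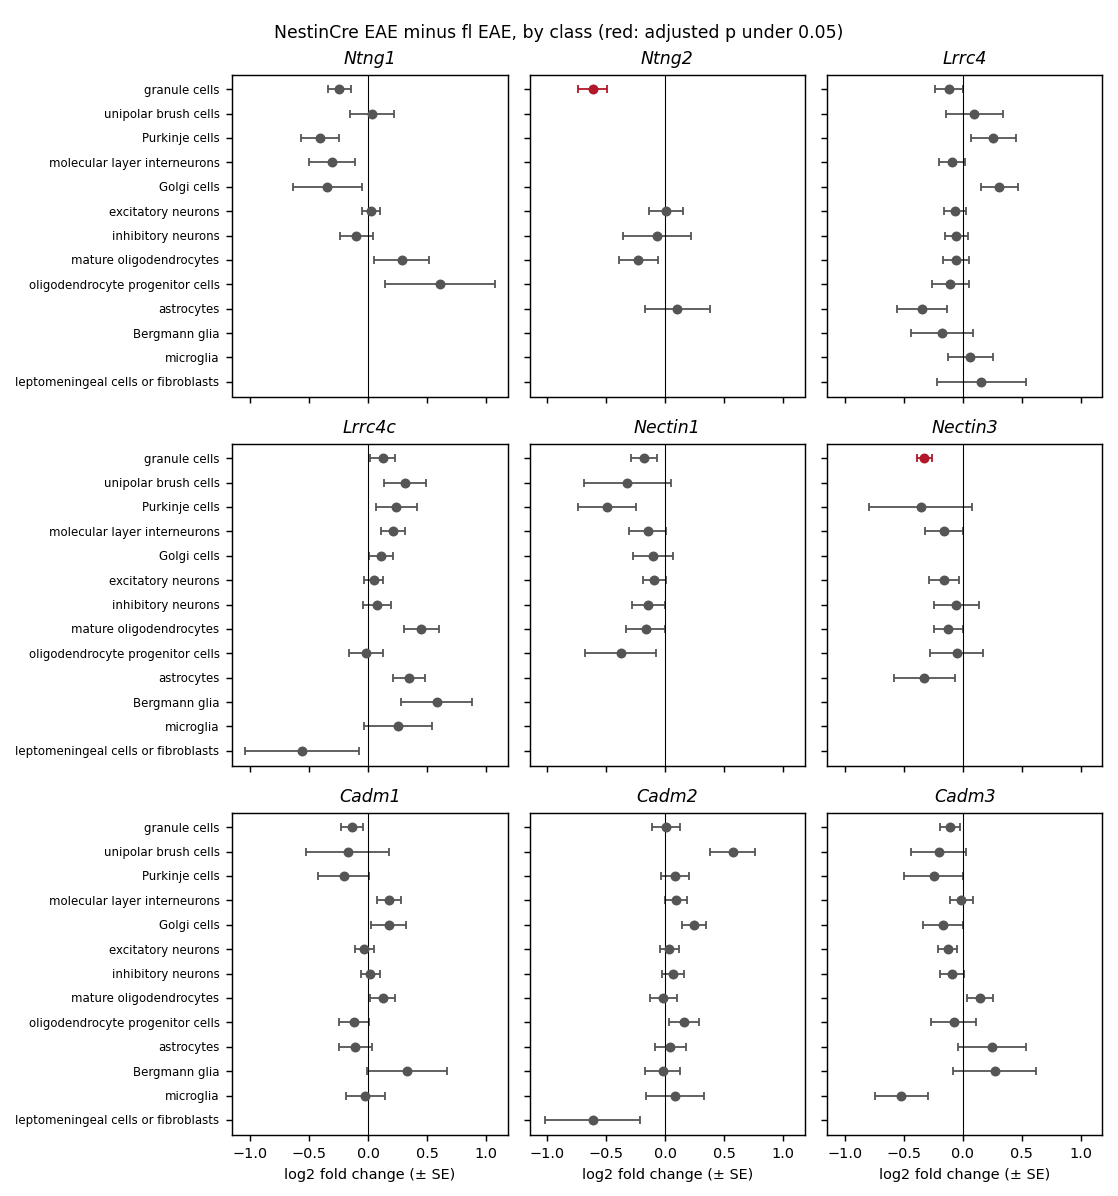
Each panel gives, for a gene, the log2 fold change of NestinCre EAE over fl EAE with its standard error (x axis) in each class in which the gene passed the filter (y axis), from edgeR fits with 4 libraries a group. The 2 red points, Ntng2 at -0.617 and Nectin3 at -0.327 in granule cells, are those with an adjusted p under 0.05. Unipolar brush cells include the dopamine-gene cluster.

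**Figure D5:**
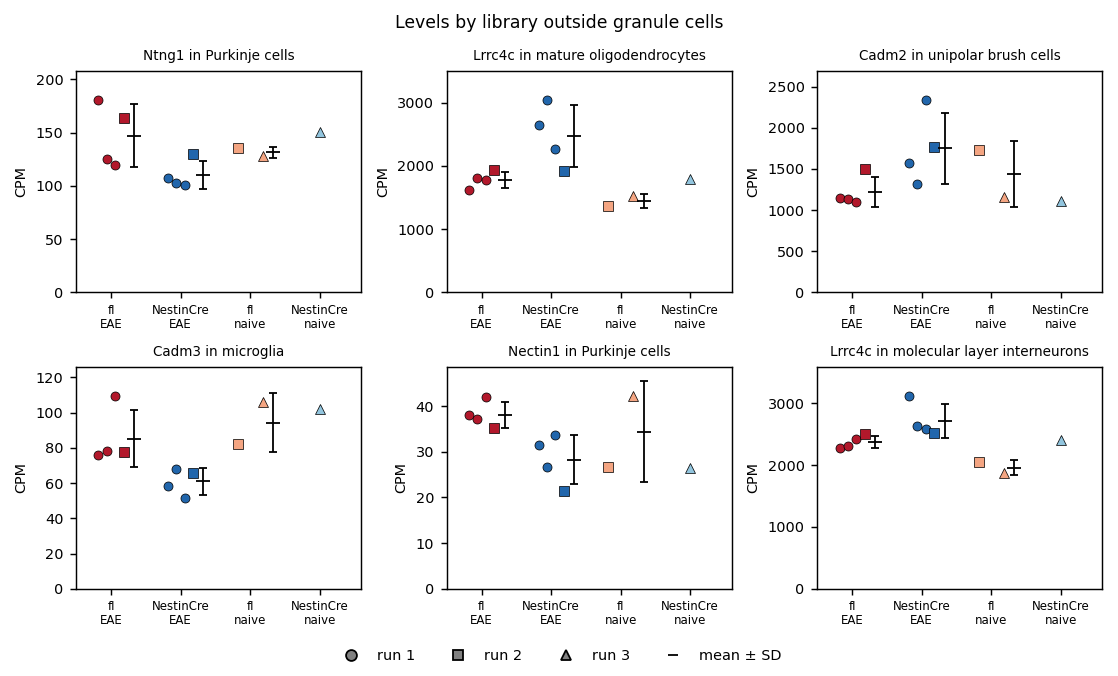
CPM of 6 pairs of gene and class outside granule cells (y axis) by group (x axis), with a point for each library, the run as the marker shape and bars for the mean ± SD. Lrrc4c in mature oligodendrocytes reached 2267 to 3049 CPM in the 3 NestinCre EAE libraries of run 1 and 1921 CPM in that of run 2, which lay within the fl EAE values. The panel of Cadm2 in unipolar brush cells includes the dopamine-gene cluster.

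Over all 94 pairs, 9 had an unadjusted p under 0.05, of which 5 were lower in NestinCre EAE, beside 7.53% of all gene and class pairs. In 4 pairs every NestinCre EAE library was lower than every fl EAE library, beside 2.06% of all pairs, and in 1 every one was higher, beside 2.43%. Other than the granule cell pairs, the smallest adjusted p of any member was 0.217.

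The naive libraries set the genotypes side by side without disease. Ntng2 in granule cells stood at 31.5 and 18.9 CPM in fl naive and at 15.8 CPM in NestinCre naive, and Nectin3 at 90.8 and 59.8 CPM against 53.3 CPM. The NestinCre naive library was the lowest of the 3 for both genes, as for 40 of the 103 member and class pairs tested, and it was the highest for 29. With 1 library against 2, either order is common by chance. The share over all genes is not given here, so these counts are no result about the members. The 2 fl naive libraries, from different runs, were far apart. Of 103 pairs tested across 13 classes, 0 were called by edgeR or by DESeq2, beside 0.00551% of all 126928 pairs, and 4 had an unadjusted p under 0.05, beside 4.01%. The fit takes the lone NestinCre naive library to vary like the other groups. Fitted in granule cells, Ntng2 gave a log2 fold change of -0.190 ± 0.234 and Nectin3 of -0.095 ± 0.129 with run in the fit, and -0.657 and -0.482 without it (adjusted p = 1.0 each). Without run the sign of 18 of the 103 pairs turned. The difference between the genotype effects in EAE and in naive mice was tested as an interaction. With run in the fit it was -0.436 ± 0.264 for Ntng2 and -0.240 ± 0.144 for Nectin3 in granule cells, and without run both turned, to 0.04 and 0.146 (adjusted p = 1.0 each). The sign of 22 of the 103 interactions turned in this way. Over all members 0 of 103 pairs were called by either tool, beside 0.00158% of all pairs, with 2 at an unadjusted p under 0.05, beside 4.96%.

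EAE was then set against naive tissue over both genotypes, with run in the model. Of 103 pairs, 0 were called by edgeR or by DESeq2, beside 0.141% of all 126928 pairs, and 18 pairs had an unadjusted p under 0.05, of which 14 were lower in EAE, beside 7.62% of all pairs. Only run 2 held EAE and naive libraries together, its naive library being fl naive 2, and the sign of 30 of the 103 pairs turned when run was left out. This comparison also shares all its EAE libraries with that of the genotypes.

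None of the pairs given next was called, and leaving run out moved their values. Ntng2 in granule cells averaged 12.7 CPM over the EAE libraries and 22.1 CPM over the naive ones, with a log2 fold change of -0.994 ± 0.230 (adjusted p = 0.451, edgeR) with run in the fit and -0.636 without it (adjusted p = 0.112). In mature oligodendrocytes it stood at 37.1, 34.3, 40.4 and 28.0 CPM in fl EAE, at 31.5, 21.0, 31.0 and 35.2 CPM in NestinCre EAE, at 59.3 and 44.7 CPM in fl naive and at 40.7 CPM in NestinCre naive, so that every EAE library was below every naive one, as for 4.17% of genes in this class. Its log2 fold change was -0.844 ± 0.290 (adjusted p = 0.212) with run in the fit and -0.475 (adjusted p = 0.154) without it. Nectin1 in mature oligodendrocytes stood at 71.2, 74.7, 84.5 and 78.8 CPM in fl EAE, at 56.3, 56.3, 95.9 and 68.6 CPM in NestinCre EAE, at 162 and 106 CPM in fl naive and at 87.0 CPM in NestinCre naive, with a log2 fold change of -1.034 ± 0.298 (adjusted p = 0.133) with run in the fit and -0.531 (adjusted p = 0.139) without it. A single EAE library, NestinCre EAE 3, lay within the naive range. When it was left out the fit with run gave -1.031 with an adjusted p of 0.022 (edgeR). The fold change hardly moved, and the omitted library was the one that overlapped, so this p-value is no support.

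Ntng1 in molecular layer interneurons averaged 42.2 CPM in EAE and 70.8 CPM in naive libraries, with a log2 fold change of -1.234 ± 0.334 (adjusted p = 0.323, edgeR) with run in the fit and -0.559 without it (adjusted p = 0.312). Without the Pax7-led cluster, which had 32 of its 146 nuclei in fl naive 2, the fit with run gave -0.077 ± 0.317 (adjusted p = 0.986). Of the naive libraries, fl naive 2 had 106 CPM, fl naive 3 had 57.4 CPM and NestinCre naive had 49.0 CPM, and the EAE values of 30.1 to 66.9 CPM overlapped with them. Nectin3 in granule cells had a log2 fold change of -0.425 ± 0.127 (adjusted p = 0.5) with run in the fit, and without run the direction turned (0.0047, adjusted p = 0.99). Lrrc4 in mature oligodendrocytes had the lowest adjusted p of this comparison, 0.129, with means of 143 CPM in EAE and 145 CPM in naive libraries, and its log2 fold change was -0.753 ± 0.215 with run in the fit and -0.036 without it (adjusted p = 0.938). Without fl EAE 4 it was -0.954 with an adjusted p of 0.0461, with run in the fit. The same omission called Lrrc4 in excitatory neurons (-0.884, adjusted p = 0.00941), which stood at -0.565 (adjusted p = 0.334) over all libraries and at -0.036 without run. Lrrc4c in microglia was called without NestinCre EAE 4 (-2.965, adjusted p = 0.0364), and stood at -1.329 (adjusted p = 0.387) over all libraries and -0.593 without run. Its level there, 129 ± 46.2 CPM, was at or below the background from granule cells in all 11 libraries. Lrrc4 in microglia was higher in all EAE than in all naive libraries, as for 2.61% of genes in this class. It had a log2 fold change of 0.690 ± 0.402 with run in the fit (adjusted p = 0.682) and 1.012 without (adjusted p = 0.00407), and Snd1 gave 0.887 ± 0.401 with run in the fit (adjusted p = 0.527).

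The wider adhesion genes were read from 2 lists. The first held 15 partners and relatives, such as the remaining nectins and Cadm4, afadin (Afdn), scaffolds and the LAR-type phosphatases. Of 144 gene and class pairs tested between genotypes in EAE, 1 was called, higher in NestinCre EAE: Epb41l3, which encodes a band 4.1 protein that links membrane proteins to the cytoskeleton, in microglia (log2 fold change 0.883 ± 0.229, adjusted p = 0.021, edgeR), a class in which 6.75% of 7226 genes were called. In granule cells the 15 genes had a median log2 fold change of 0.023, beside -0.001 over all genes. The second list held 37 other synaptic adhesion genes, among them neurexins, neuroligins and teneurins, and 0 of 343 pairs were called between genotypes in EAE by edgeR, with 26 at an unadjusted p under 0.05, beside 1.02% and 7.53% of all pairs. DESeq2 called 1, Tenm3 in inhibitory neurons, a gene named here after its value was seen.

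Between EAE and naive libraries, 1 of 161 pairs of the first list was called, Ptprf, a LAR-type receptor phosphatase, higher in EAE in mature oligodendrocytes (log2 fold change 1.165 ± 0.251, adjusted p = 0.0453, edgeR). Of the second list, 1 of 394 was called, Tenm4, which encodes a teneurin, lower in EAE in the same class (-1.759 ± 0.286, adjusted p = 0.0102), where 0.910% of 12853 genes were called. For the genotypes in naive mice and for the interaction, 0 pairs of either list were called by edgeR or DESeq2, with 5 and 6 of 161 pairs of the first list and 21 and 29 of 394 pairs of the second at an unadjusted p under 0.05, beside 4.01% and 4.96% of all pairs.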

How the data were processed

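The deposited files were 10x matrices of raw UMI counts per gene and nucleus; the authors had aligned reads to GRCm39 and counted intronic reads with Cell Ranger (7.0.0 for run 1 and 6.0.2 for runs 2 and 3 per the file headers). Nuclei with at least 200 genes (run 1) or 500 genes (other runs) and at most 5% mitochondrial UMIs were kept, in the manner of the study, except that its further limit on total UMIs was applied only as an alternative (nuclei under 6000 UMIs). Doublets were scored by simulation in scanpy 1.11.5, and the highest-scoring 0.8% per 1000 barcodes of each library and clusters with over 40% such nuclei were left out (29002 nuclei). Nuclei were clustered after alignment across libraries, with the members and the listed adhesion genes kept out of the variable genes. Of 100 clusters, 78 were named by the score of fixed marker lists. The other 22, with 7.95 to 17.9% of the nuclei of a library, stayed unnamed. The largest of these, with 5204 nuclei, scored best as granule cells but was led by mitochondrial genes. Clusters of 630 and 487 nuclei also scored best as granule cells, but 2 classes scored alike. A cluster of 3481 nuclei that scored best as mature oligodendrocytes was among the unnamed too, as Enpp6, a marker of newly formed oligodendrocytes, led it. So were clusters of 1422 and 1281 nuclei that scored best as inhibitory neurons, a class of 2224 named nuclei, since 2 classes scored alike. Values of a class therefore cover its named clusters only. A name required at least 3 detected markers and a score at least 0.2 above the next class. A cluster led by mitochondrial genes, or more by markers of another class than by its own, was not named. These conditions were set after the leading genes of the clusters had been seen. In every class the same cluster was the largest in all 4 groups, with shares given where they bear on a result. A cluster of 38 nuclei led by dopamine genes kept the name unipolar brush cells by its score, as did 2 clusters led by Pax7 (60 oligodendrocyte progenitor cells and 146 molecular layer interneurons), and values without them were computed as alternatives chosen after seeing the data. An interferon-gene-led cluster kept the name microglia.

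Counts were summed per library and class, since nuclei of a library are not replicates, and tested in the 13 classes with at least 10 nuclei in every library by the quasi-likelihood test of edgeR 4.0.16 (filterByExpr, TMM, run as covariate, R 4.3.3), with p-values adjusted over all genes of a class. Genotypes in EAE were compared over 8 libraries and the other contrasts were fitted on all 11. The labels name each library a separate sample of its group, so p-values measure the spread between these samples. DESeq2 1.42.0 and other settings were alternatives. Only the fit of genotypes in EAE was tried on simulated counts, for granule cells and microglia, with set changes larger than that of Nectin3. The other fits were not tried in this way.

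Full statistics were set for each member in the class of its smallest p, for members the study names in granule cells and molecular layer interneurons and for each called pair; pairs described further were chosen after their values were seen. The members and the gene lists were chosen with earlier results of these data known. The replicate labels gave no number for the run 2 EAE libraries, here replicate 4.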

Additional observations from a re-analysis of the deposited data

Results flagged for a closer look

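Of 30 groups of 4 EAE libraries examined for the pairs given in full, 4 held a library far from the other 3, where chance flags about 1 in 20 groups. Nectin3 in granule cells was 72.2 CPM in fl EAE 3, above 66.8 to 67.6 CPM in the other fl EAE libraries. Cadm2 in unipolar brush cells was 1494 CPM in fl EAE 4, the only fl EAE library of run 2, against 1099 to 1152 CPM; without the dopamine-gene cluster the others stood at 963 to 1099 CPM. Cadm3 in microglia was 110 CPM (109.5) in fl EAE 3 against 76.1 to 78.0 CPM. Cadm3 in molecular layer interneurons was 186.7 CPM in NestinCre EAE 3 against 136 to 141 CPM in the other NestinCre EAE libraries. fl EAE 3 also had the largest share of nuclei in unnamed clusters, 17.9%. The part of run, depth or cluster naming in these values was not tested.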

How the results depend on the processing

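Between genotypes in EAE, DESeq2, RLE size factors, nuclei under 6000 UMIs and stricter doublet removal each called 2 members, as reported. The count of members called was 4 with no filter beyond 1 count, 4 in run 1 alone, 1 without the run term (where Ntng2 in granule cells had an adjusted p of 0.0983), 0 when p-values were adjusted over all classes together (0.0722 for Ntng2 and 0.0518 for Nectin3) and 0 to 4 when a library was left out. The share of all genes called under each setting is not given here, so these counts show only how the calls moved. The added calls were Lrrc4c in mature oligodendrocytes and Ntng2 in microglia, the latter no support, since it had 1 to 5 UMIs in a fl EAE library and entered with no filter or through the NestinCre EAE libraries. Ntng2 and Nectin3 in granule cells kept a negative log2 fold change in all 17 alternatives each. Cadm3 in molecular layer interneurons, at -0.011, turned to 0.003 for nuclei under 6000 UMIs, to 0.013 with stricter doublet removal, to 0.017 in run 1 alone and ranged from -0.111 to 0.045 with a library left out (0.027, 0.045, 0.017 and 0.015 where it turned). Cadm2 in unipolar brush cells, at 0.570, was 0.077 without the dopamine-gene cluster, an alternative chosen after seeing the data. Leaving out a library moved Cadm1 in molecular layer interneurons (0.177) to between 0.116 (without fl EAE 1) and 0.294 (without fl EAE 4), Cadm2 in unipolar brush cells to 0.355 (without NestinCre EAE 3) and Cadm3 in microglia (-0.522) to -0.347 (without fl EAE 3). Of 240 alternative values for the pairs given in full, 214 kept the direction and the side of the threshold and 7 turned.

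Between EAE and naive libraries the count was 0 in the reported fit, 2 with no filter (Nectin1 in mature oligodendrocytes, -1.028, and Ntng1 in molecular layer interneurons, -1.213), 1 without the run term, and 0 to 2 with a library left out. The count for the genotypes in naive mice and for the interaction was 0 in the alternatives run. The NestinCre naive library was never left out, and with a fl naive library left out run and group could not both be fitted. Fits without run, chosen after seeing the data, gave 0 calls for both contrasts, and for EAE against naive 1 without fl naive 2 (Lrrc4 in microglia) and 2 without fl naive 3 (this pair and Nectin1 in mature oligodendrocytes). In granule cells the genotype difference in naive mice was then -0.191 and -1.037 for Ntng2 and -0.096 and -0.81 for Nectin3, and the interaction turned from -0.426 to 0.424 and from -0.24 to 0.478. Without the Pax7-led cluster, the filtered fit with run gave -0.077 for Ntng1 in molecular layer interneurons.

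With the replicate number as a block, 0 members were called between genotypes in EAE (log2 fold change -0.619 for Ntng2 and -0.326 for Nectin3 in granule cells). Whether the replicate numbers pair the libraries could not be decided from the few libraries of run 1. There the correlation of deviations from the group means ran from -0.178 to 0.194 for libraries of the same number, with 2 of 39 above 0.1. For libraries of other numbers it ran from -0.294 to 0.252, with 6 of 78 above 0.1. In 1 of 13 classes did every fl library correlate best with its own number. The cause of these changes was not tested.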

Other observations

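Ntng1 in leptomeningeal cells or fibroblasts had a mean of 181 CPM over the 11 libraries but a median of 34.0 CPM and a range from 0 to 1195 CPM, and 9 of 11 libraries were at or below the background from granule cells. The highest value was that of NestinCre EAE 1, on 55 UMIs in 15 nuclei, and the class held 281 nuclei in all.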
